A study of Homo sapiens with 12 samples.

Results

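TNFRSF12A, HCFC1R1 and THOC6 are 3 adjacent protein-coding genes on chromosome 16, and the data here are the peaks of hnRNPK on them. The peaks came from chromatin immunoprecipitation and sequencing (ChIP-seq) in HCT116, a line of human colorectal carcinoma cells. Every peak that touched a gene body or the 5 kb upstream of a gene start was taken, in each of 6 peak lists. That gave 7 peaks of the 16214 on chromosomes 1 to 22, X and Y, and 3 genes of 62700 in the annotation, 20046 of which are protein-coding. The genes were selected on measured values, since an earlier reading of the same lists had shown high-scoring peaks on them. The presence, place, width and rank of these peaks are therefore given as a description, with no test.

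Each of 3 groups had 2 immunoprecipitated (IP) libraries, with an input library for each. CRLM1-OE cells overexpressed CRLM1, a long noncoding RNA, empty control cells carried a construct without insert, and antisense control cells carried an antisense construct. The study describes the CRLM1-OE and control cells of this ChIP-seq as overexpressing hnRNPK, without naming the antisense control, and the labels do not mention it. The labels number the replicates but do not say that they were separate cultures. The lists held 4339 and 3163 peaks in CRLM1-OE, 1619 and 2607 for empty control and 2262 and 2224 for antisense control cells, replicate 1 first. Read depth is unknown for each list, so a missing peak means that none passed the calling threshold, not that hnRNPK was absent.

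hnRNPK is a nuclear protein with KH domains that binds C-rich single strands of RNA and DNA, and it acts in transcription, splicing and translation. TNFRSF12A encodes Fn14, the receptor of the cytokine TWEAK, a member of the TNF receptor superfamily that signals to NF-kappaB through TRAF adaptors. HCFC1R1 encodes a small protein that binds the transcriptional coregulator HCF-1 and takes part in its nuclear export. THOC6 encodes a subunit of the THO complex, which joins the TREX complex that packages messenger RNA for export from the nucleus.

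The genes lie close together. On GRCh38, with GENCODE release 44, TNFRSF12A (ENSG00000006327.14) runs from 3018445 to 3022383 on the plus strand. HCFC1R1 (ENSG00000103145.11) runs from 3022625 to 3024286 on the minus strand, so that 241 bp separate the 3′ ends of these genes. THOC6 (ENSG00000131652.14) runs from 3024027 to 3027755 on the plus strand. The gene records of HCFC1R1 and THOC6 start 259 bp apart on opposite strands and share 260 bases. The canonical transcripts, which are the ones Ensembl takes as representative, start 93 bp apart, at 3023942 for HCFC1R1 and at 3024035 for THOC6. The canonical TNFRSF12A transcript starts at 3020368, which is 1923 bp into its gene record.

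The sequences at the shared start of HCFC1R1 and THOC6 are printed because this is where the peaks of the lists meet. They are RefSeq promoters on GRCh38.p14, of 300 bases each, from 250 bases before to 50 bases after a start, read 5′ to 3′ on the strand of the gene. The table of promoters matched 2 of the 3 genes, HCFC1R1 with 2 starts and THOC6 with 1, and held no entry for TNFRSF12A. Capitals mark runs of 4 or more C or of 4 or more G. The THOC6 promoter lies at chr16:3023785-3024084 on the plus strand, and the HCFC1R1 promoters at chr16:3023893-3024192, for the canonical start, and at chr16:3024237-3024536, for the start upstream of it, both on the minus strand.
THOC6: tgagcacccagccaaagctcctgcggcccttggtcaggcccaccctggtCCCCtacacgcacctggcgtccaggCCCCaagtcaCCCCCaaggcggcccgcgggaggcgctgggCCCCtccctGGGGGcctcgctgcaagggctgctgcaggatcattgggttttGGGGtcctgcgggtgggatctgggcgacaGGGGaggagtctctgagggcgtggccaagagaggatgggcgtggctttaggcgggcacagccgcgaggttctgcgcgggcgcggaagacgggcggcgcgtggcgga
HCFC1R1 canonical start: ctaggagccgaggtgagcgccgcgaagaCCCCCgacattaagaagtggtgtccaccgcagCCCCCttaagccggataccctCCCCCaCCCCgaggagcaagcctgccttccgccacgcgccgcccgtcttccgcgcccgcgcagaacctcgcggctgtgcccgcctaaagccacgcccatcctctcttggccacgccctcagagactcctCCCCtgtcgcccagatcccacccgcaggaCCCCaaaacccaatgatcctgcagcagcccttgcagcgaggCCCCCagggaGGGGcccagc
HCFC1R1 upstream start: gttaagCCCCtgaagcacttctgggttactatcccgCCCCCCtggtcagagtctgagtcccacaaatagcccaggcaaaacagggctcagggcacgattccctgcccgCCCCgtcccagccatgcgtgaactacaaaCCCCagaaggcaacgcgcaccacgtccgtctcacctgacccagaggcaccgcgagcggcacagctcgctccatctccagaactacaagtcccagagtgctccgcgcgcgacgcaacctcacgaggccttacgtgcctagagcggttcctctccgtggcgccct

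The peaks of the empty control lists ended within these sequences, whereas those of CRLM1-OE and antisense control replicate 1 ran past them on both sides. The whole THOC6 promoter lay under the peaks of both CRLM1-OE lists, of empty control replicate 2 and of antisense control replicate 1, and 287 of its 300 bases lay under the peak of empty control replicate 1. The canonical HCFC1R1 promoter was covered whole by the same 4 lists and for 179 bases by empty control replicate 1. The upstream HCFC1R1 promoter was covered whole by both CRLM1-OE lists and antisense control replicate 1, for 275 bases by empty control replicate 2, and for 0 bases by empty control replicate 1. Antisense control replicate 2 had no peak on any of them.

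The first question was on which of the genes each list had a peak. HCFC1R1 and THOC6 had a peak in 5 of the 6 lists, and TNFRSF12A in 3. The exception for all of them was antisense control replicate 2. TNFRSF12A had its peaks in the CRLM1-OE lists and in empty control replicate 1. By the same rule, 10.6% and 9.38% of all protein-coding genes had a peak in the CRLM1-OE lists, 3.5% and 5.7% in the empty control lists, and 5.7% and 5.84% in the antisense control lists. A peak in 5 or 6 lists was found for 59 genes, or 0.294%. The rule chose the genes by these peaks, so nothing is read from that share.

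In CRLM1-OE replicate 1 the locus held 3 peaks. The peak at chr16:3022273-3024749 had a width of 2477 bp and a score of 309.27, and it ranked 16 of 4339 by score. It covered all of HCFC1R1, the first 723 bases of THOC6 and the last 111 bases of TNFRSF12A, which are 3′ UTR. A peak at chr16:3020550-3022034, 1485 bp wide, lay inside TNFRSF12A and had a score of 59.32, with a rank of 1604. The gap between these peaks was 238 bp. A peak at chr16:3027755-3028700, 946 bp wide and with a score of 92.59 and a rank of 179, lay on the neighbouring gene BICDL2. It touched the last base of THOC6 and met the rule for HCFC1R1 through its upstream region.

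In CRLM1-OE replicate 2 the locus held 1 peak, at chr16:3019978-3025394. Its width was 5417 bp, its score 427.58 and its rank 3 of 3163. It covered all of HCFC1R1, 61.1% of TNFRSF12A and 36.7% of THOC6, and ran as 1 interval over the stretch that replicate 1 filled with 2 separate peaks. Of the 7 annotated transcript starts of TNFRSF12A it covered 6, the canonical start among them. No peak of any list reached the start of the TNFRSF12A gene record, which comes from 1 transcript.

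The control lists had 1 peak each at the locus, or none. In empty control replicate 1 the peak at chr16:3021006-3024071 was 3066 bp wide, with a score of 120.59 and a rank of 7 of 1619. It covered 87.1% of HCFC1R1 and 35.0% of TNFRSF12A, and ended 44 bp past the start of THOC6 and 215 bp short of the start of the HCFC1R1 gene record. In empty control replicate 2 the peak at chr16:3022677-3024511 was 1835 bp wide, with a score of 59.14 and a rank of 1116 of 2607. It began 293 bp beyond the end of TNFRSF12A. In antisense control replicate 1 the peak at chr16:3023188-3024893 was 1706 bp wide, with a score of 90.42 and a rank of 70 of 2262. It covered 66.1% of HCFC1R1 and 23.3% of THOC6.

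**Figure D1:**
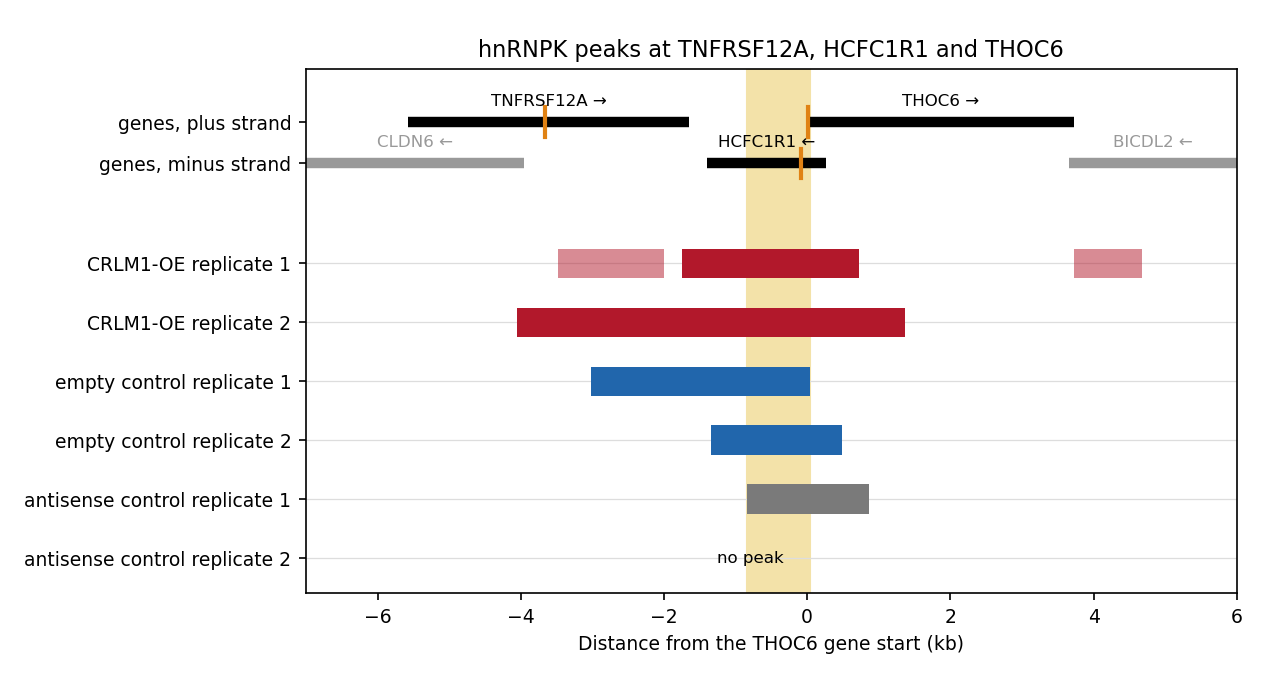
Peaks of the 6 lists (bars, coloured by group) and gene bodies (top) against the distance from the THOC6 gene start in kb. Dark bars are the peaks over the HCFC1R1 and THOC6 starts, pale bars the other peaks of CRLM1-OE replicate 1, orange ticks the canonical starts and the shaded band the 884 bp common to the 5 dark bars; antisense control replicate 2 has no peak.

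All 5 peaks over the starts shared chr16:3023188-3024071, an interval of 884 bp. It ran from 839 bp before to 44 bp after the start of the THOC6 gene record. All of it lay within HCFC1R1, with 332 bases of coding sequence, 377 of non-coding exon, 130 of 5′ UTR and 45 of intron, counting each base once, UTR and coding sequence before non-coding exon and intron. It also held 45 bases of THOC6. Both canonical starts lay in it, as did 9 of the 10 THOC6 transcript starts and 2 of the 9 HCFC1R1 transcript starts. The other HCFC1R1 starts lay between the end of the peak of empty control replicate 1 and the end of the gene record, under the peaks of the other 4 lists.

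The control peaks at the locus lay within the coverage of CRLM1-OE, through the wide peak of CRLM1-OE replicate 2. The 7 peaks together covered 6363 bases, of which 3888 lay under a peak of a control list. Every one of these 3888 bases also lay under the peak of CRLM1-OE replicate 2, and 0 bases lay under a control peak alone. The peaks of CRLM1-OE replicate 1 did not cover all of them. They left out 238 bp at chr16:3022035-3022272 and 144 bp at chr16:3024750-3024893. Only 456 bases, at chr16:3020550-3021005 in TNFRSF12A, lay under peaks of both CRLM1-OE lists and no control list. They held 210 bases of coding sequence and 246 of non-coding exon. A further 2019 bases lay under a peak of 1 CRLM1-OE list alone.

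The replicates of a group were not the lists with the closest peak edges. The shared part of 2 peaks, as a percentage of the bases covered by either, ranged over the 10 pairs of lists from 22.7% to 74.1%. It was 45.7% between the CRLM1-OE lists and 39.8% between the empty control lists. The highest value, 74.1%, was between CRLM1-OE replicate 1 and empty control replicate 2, and the lowest between empty control replicate 1 and antisense control replicate 1. In 5 of the 10 pairs each peak overlapped at least 50% of the other.

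The next question was how the peak over the starts stood in CRLM1-OE and in the controls. The score of this peak was 309.27 and 427.58 in CRLM1-OE, 120.59 and 59.14 in the empty control, and 90.42 in antisense control replicate 1, the only antisense list that had it. Both CRLM1-OE scores were above all 3 control scores. The means were 368 ± 83.7 in CRLM1-OE and 89.9 ± 43.5 in empty control cells (SD, n = 2 each). Divided by the median score of the list, the score was 5.48 and 7.42 in CRLM1-OE, 2.15 and 1.03 in the empty control, and 1.59 in antisense control replicate 1. The medians of these lists lay between 55.99 and 57.62, so this division could hardly change the order, and nothing is read from it. The scale of the score is not settled, and it is a value of peak calling that moves with the reads of a library, which are unknown, so the part of depth in this difference was not tested.

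The rank within the list tells the lists apart in another way. As a percentage of the list, where low means a high score, the rank was 0.369% and 0.0948% in CRLM1-OE, 0.432% and 42.8% in the empty control, and 3.09% in antisense control replicate 1. Empty control replicate 1 was thus next to CRLM1-OE replicate 1, whereas empty control replicate 2 was in the middle of its list. The means were 0.232% ± 0.194 in CRLM1-OE and 21.6% ± 30.0 in empty control cells (SD, n = 2 each). The difference of -21.4 points did not exceed the combined SD of 30.0 points, and without empty control replicate 2 it was -0.201 points. The spread between the empty control lists in rank by score therefore exceeded the difference in rank between the groups. Ranked by score divided by width, the difference was -56.7 points and exceeded its combined SD of 14.1 points, so the statement holds for the ranking by score only. Rank was among the values that chose the genes, so both comparisons are descriptions.

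**Figure D2:**
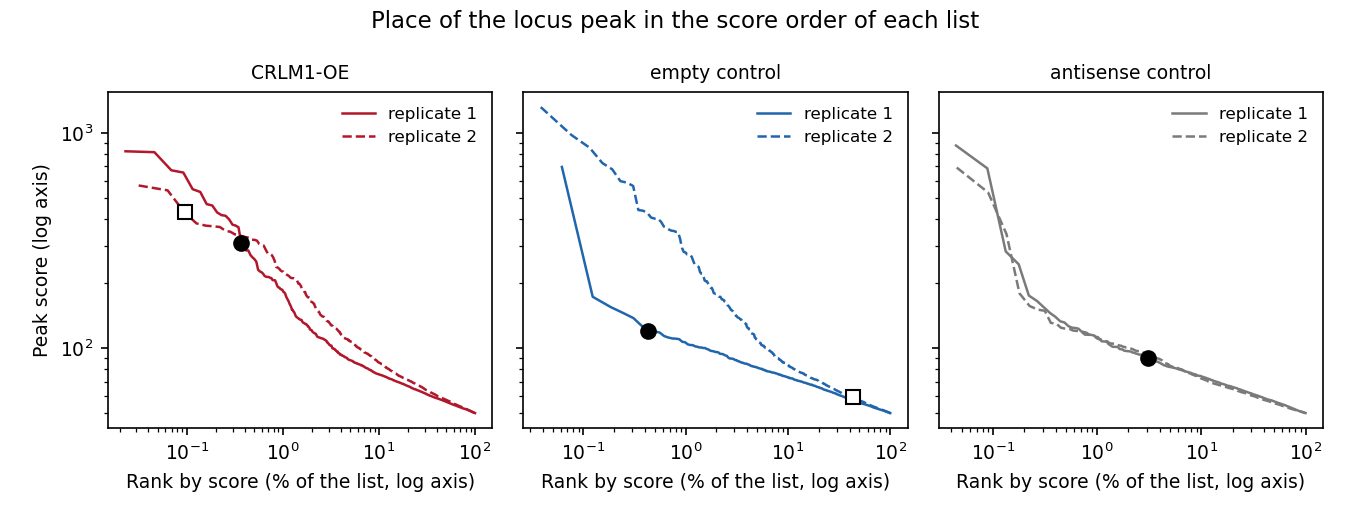
Score of every peak (log axis) against its rank as a percentage of the list (log axis), with the peak over the HCFC1R1 and THOC6 starts marked by a filled circle in replicate 1 and an open square in replicate 2. The mark stands within the top 0.5% in both CRLM1-OE lists and in empty control replicate 1, at 3.09% in antisense control replicate 1 and at 42.8% in empty control replicate 2.

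The width of the peak in bp overlapped between the groups. It was 2477 and 5417 bp in CRLM1-OE, 3066 and 1835 bp in the empty control and 1706 bp in antisense control replicate 1. The means were 3947 ± 2079 bp in CRLM1-OE and 2450.5 ± 870 bp in empty control cells (SD, n = 2 each), and the difference of 1496.5 bp did not exceed the combined SD of 2254 bp. Without CRLM1-OE replicate 2 it was 26.5 bp. All 5 peaks were wide for their list, at 4.90, 7.25, 4.26, 3.56 and 2.34 times the median width, in the order above. On this scale CRLM1-OE and the empty control did not overlap, and their difference of 2.17 exceeded the combined SD of 1.74. With 2 lists each and genes chosen by these peaks, this describes the lists and is not a test. By width they ranked 12, 2, 6, 27 and 35, so the peak of empty control replicate 2 stood far higher by width than by score. Per 100 bp of width the score was 12.5 and 7.89 in CRLM1-OE, 3.93 and 3.22 in the empty control, and 5.30 in antisense control replicate 1.

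**Figure D3:**
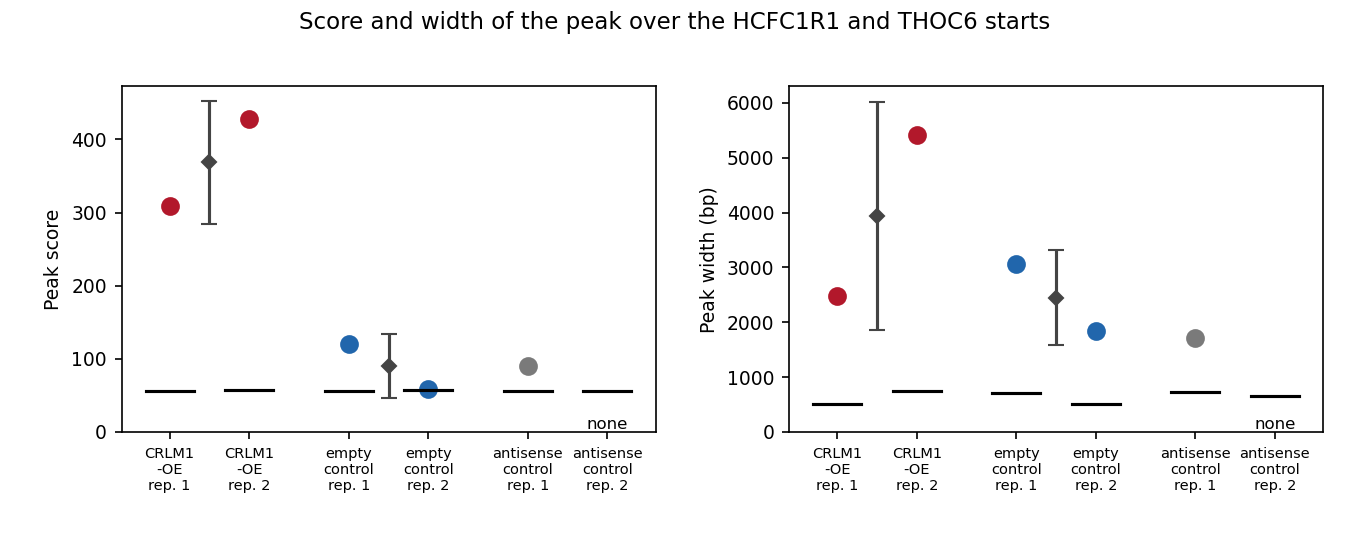
Score (left) and width in bp (right) of the peak over the HCFC1R1 and THOC6 starts in each list (circles), with the median of all peaks of the list (horizontal lines) and the mean and SD of CRLM1-OE and the empty control (diamonds with bars, n = 2 each). The 2 CRLM1-OE scores lie above the 3 control scores, whereas the widths of CRLM1-OE and the empty control overlap; antisense control replicate 2 has no peak.

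Peaks over the start of a protein-coding gene were a small part of every list, between 14 and 302 of its peaks. Among these, the locus peak had the highest score in 3 lists, of 161 such peaks in CRLM1-OE replicate 1, of 302 in replicate 2 and of 14 in empty control replicate 1. The next highest scores in these lists were 252.35, 371.12 and 73.62. It ranked 26 of 45 in empty control replicate 2 and 7 of 86 in antisense control replicate 1. Antisense control replicate 2 had 86 peaks over a start and none at this locus.

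HCFC1R1 and THOC6 form a head-to-head pair, with starts on opposite strands within 1 kb, and 1 peak covered the starts of both gene records in 4 lists. There were 1397 such pairs of protein-coding genes. Both starts lay under 1 peak for 0.931% and 2.58% of the pairs in the CRLM1-OE lists, 0.143% and 0.143% in the empty control lists, and 0.644% and 0.215% in the antisense control lists. Of all pairs, 49 had such a peak in 1 list, 6 in 2 lists and 1, HCFC1R1 and THOC6, in 4. With the canonical starts in place of the gene records, an alternative chosen after the peaks had been seen, the pair was covered in 5 lists and no other pair in more than 2. The 5 lists included empty control replicate 1, whose peak reached 36 bp past the canonical THOC6 start.

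When peaks of different lists that overlapped were merged, 31 regions were called in 5 or more lists, and the 5417 bp over these genes were 1 of them. By width they ranked 3 of the 31. Of the 31, 9 touched a protein-coding gene or its 5 kb upstream, and 4 covered a protein-coding start. A start was covered by 517 of 15012 regions in 1 list and by 67 of 313 in 2 lists. In 3 lists it was 19 of 74, and in 4 lists 5 of 34. Besides the locus, the regions in 5 or more lists that covered a start held those of NEK8, PLXNB2 and CDC25C. The merged region over the locus also reached the start of CLDN6, through the peak of CRLM1-OE replicate 2 alone. The best peaks of the lists shared 884 bp here, 566 bp at CDC25C, 189 bp at PLXNB2 and 0 bp at NEK8. The highest standing by rank was 0.0948% here, 0.158% at NEK8, 0.899% at CDC25C and 13.8% at PLXNB2. The lowest standing was 42.8%, 42.0%, 36.6% and 45.0%, so in each of these regions 1 or more lists held a peak near the middle of the list.

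The protein-coding genes with a peak in the same 5 lists as THOC6 numbered 13, THOC6 itself included. They were ordered by the mean absolute difference of their best percent rank from that of THOC6 over these lists. HCFC1R1 and CLDN6 came first with a difference of 0, because the peaks that met the rule for them included the same 5. GH1, the growth hormone gene on chromosome 17, and ENSG00000285947, which overlaps it, followed with 12.7 points and with 504 bp common to their peaks. Reads of GH1 can be shared with its near-identical neighbours in the growth hormone cluster, so its peaks are uncertain. CTNND2 and DLGAP1, at 37.3 and 39.3 points, are long genes of 933 and 959 kb, and their peaks in different lists had 0 bases in common. Of the 59 genes with a peak in 5 or 6 lists, 43 were over 100 kb long, and 10 had bases common to all their lists. Among the 10 were HCFC1R1, THOC6 and CLDN6, through the same 884 bp. The median length of the 59 was 507 kb, whereas HCFC1R1 has 1.66 kb and THOC6 3.73 kb.

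The genes around the locus were looked up in the same way. Of 10 other protein-coding genes within 50 kb, 6 had no peak in any list, namely KREMEN2, GREP1, ENSG00000289281, CLDN9, MMP25 and IL32. Of all protein-coding genes, 28.2% had a peak in any list, so a gene without a peak was the usual case. CLDN6 had a peak in 5 lists, but each was a locus peak that reached the gene or its upstream 5 kb. BICDL2 had peaks in CRLM1-OE replicate 1 alone, and PKMYT1 and PAQR4 in antisense control replicate 2 alone. The nearest peak outside the rule was in CRLM1-OE replicate 1, at chr16:3031226-3031953, where it ranked 538, and it lay 1.94 kb beyond the region, whereas the peak just inside, at chr16:3027755-3028700, ranked 179. In antisense control replicate 2 the nearest peak lay 40.6 kb before the region and ranked 930 of 2224. Within 1 Mb on either side there were 10 and 8 other peaks with CRLM1-OE, 1 and 3 with the empty and 1 and 5 with the antisense construct. Per Mb these were 5 and 4, 0.5 and 1.5, and 0.5 and 2.5. Over the genome the same lists had 1.40 and 1.02, 0.524 and 0.844, and 0.732 and 0.720 peaks per Mb.

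The base composition of the peaks was not used to choose the genes. GC content of the peak over the starts was 60.6% and 61.9% in CRLM1-OE, 63.5% and 64.1% in the empty control, and 61.3% in antisense control replicate 1. The medians of these lists lay between 37.4% and 43.9%, and between 1.48% and 13.0% of the peaks of a list had as high a GC content. Among peaks over a protein-coding start the order turned. There 81.4%, 64.6%, 71.4%, 71.1% and 79.1% of the peaks had at least the GC content of the locus peak. The ratio of observed to expected CpG was lower still in this company, since 88.8%, 91.4%, 92.9%, 88.9% and 90.7% of such peaks had at least the ratio of the locus peak. The median width of such peaks was 799, 1354, 1092.5, 711 and 1081.5 bp in these lists. The locus peak was wider than that in each list, and the part of width in these shares was not tested.

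C-rich runs were counted as CCCC on either strand, that is CCCC or GGGG on the plus strand, with overlapping matches counted. Per kb the locus peak held 31.1 and 34.7 in CRLM1-OE, 41.7 and 30.5 in the empty control, and 25.8 in antisense control replicate 1. The list medians were between 3.54 and 6.17, and 7.35%, 7.46%, 0.741%, 6.79% and 9.86% of the peaks had as many. Of the peaks over a start, 48.4%, 34.4%, 21.4%, 66.7% and 66.3% had as many. The locus peak was thus above the median of these peaks in both CRLM1-OE lists and in empty control replicate 1, where it held 41.7 per kb against a median of 27.0 over 14 peaks, and below it in the other 2 lists. In the 884 bp common to the 5 peaks there were 30 matches, 15 on each strand, with 4 of TCCCT and 0 of CCCTCCCC, which holds CCCC within it. Of the segments with different sets of lists, the densest was chr16:3022035-3022272, 238 bp in the 3′ UTR of TNFRSF12A under CRLM1-OE replicate 2 and empty control replicate 1, with 71.4 matches per kb, 16 of 17 of them GGGG on the plus strand. The 456 bp of TNFRSF12A under both CRLM1-OE lists and no control list held 54.8 per kb, with 20 of 25 as GGGG.

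**Figure D4:**
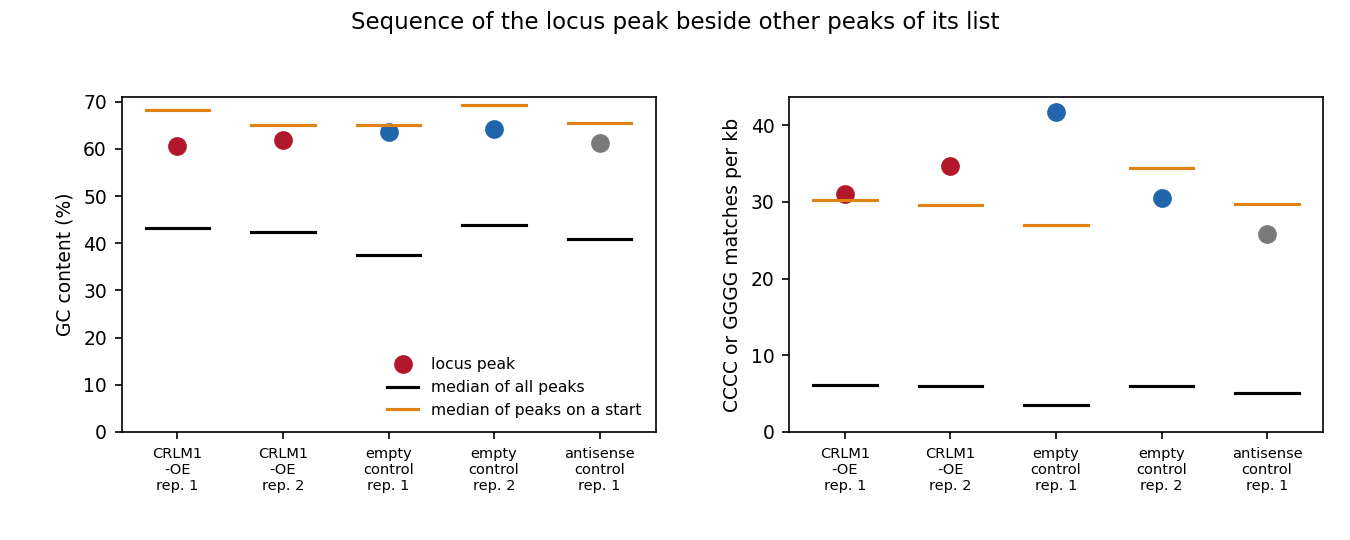
GC content (left, %) and CCCC or GGGG matches per kb (right) of the peak over the HCFC1R1 and THOC6 starts (circles) in the 5 lists that have it, with the median of all peaks of the list (black lines) and of its peaks over a protein-coding start (orange lines). Each circle lies above the black line and, for GC content, below the orange one.

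The printed promoters held C-rich runs in numbers that many promoters reach. The THOC6 promoter had a GC content of 71.3% and 9 CCCC matches, a number that 27.4% of the 35116 RefSeq promoters of the same length reached. The canonical HCFC1R1 promoter had 69.0% GC and 12 matches, which 15.2% reached, and 1 match of CCCTCCCC, a motif in 13.6% of all promoters. These promoters overlap on opposite strands, so matches in their shared bases count in both and the numbers are not independent. The upstream HCFC1R1 promoter had 63.0% GC and 6 matches, which 45.6% reached. The median promoter had 5 matches, and 89.6% of promoters had at least 1. The stretches with the most C-rich runs were not those under the most lists. Along the locus in windows of 200 bp, moved in steps of 50 bp, the window with the highest GC content, 82%, stood near the canonical TNFRSF12A start, under the peak of CRLM1-OE replicate 2 alone. The window with the most CCCC or GGGG matches, 22, lay 6082 bp before the THOC6 start, under no peak. The mean GC content was 65.0% in windows under 5 lists and 58.5% in windows under none. The mean number of CCCC or GGGG matches per window was 4.25 under no list. Under 1, 2, 3, 4 and 5 lists it was 4.44, 11.1, 7.76, 5.26 and 6.83.

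**Figure D5:**
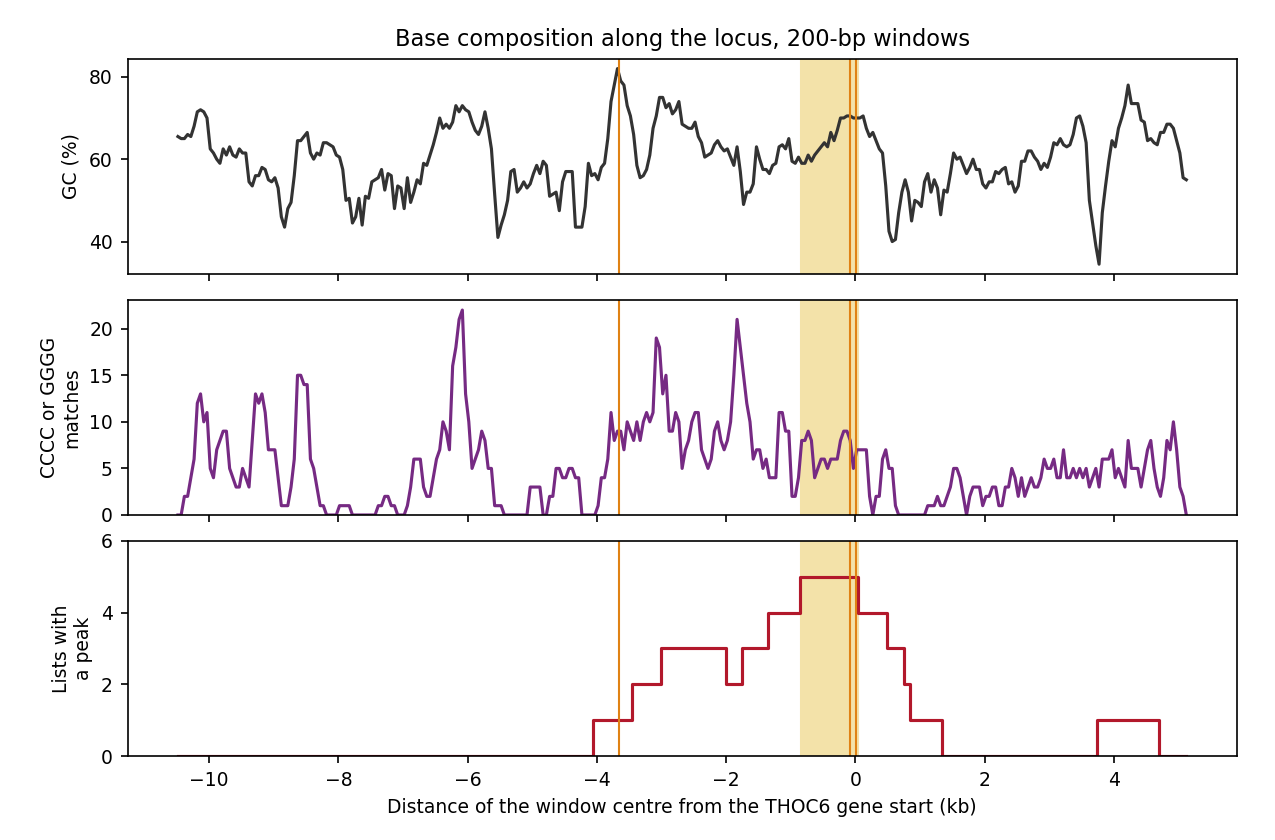
GC content (top, %), CCCC or GGGG matches (middle) and number of lists with a peak (bottom) in 200-bp windows, against the distance of the window centre from the THOC6 gene start in kb. Orange lines are the canonical starts of TNFRSF12A, HCFC1R1 and THOC6 and the shaded band is the 884 bp under 5 lists; the window with the most matches, 22, lies 6082 bp before the start, where no list has a peak.

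Genes that work with the 3 members were looked up in 4 lists of 77 genes in all, none of them members. Of these 77 genes, 18 had a peak in at least 1 list, with 24 peaks in all, and 4 of the peaks lay over the start of their gene. Of all protein-coding genes, 28.2% had a peak in any list and 8.34% in 2 or more. For TWEAK and Fn14 signalling, 4 of 17 genes had a peak, and 1 in more than a single list. TNFSF12, which encodes TWEAK itself, had a peak in CRLM1-OE replicate 1, from 3707 to 3113 bp before its start. RELB, an NF-kappaB subunit, had a peak upstream in CRLM1-OE replicate 1 and a peak in its body in antisense control replicate 2, and the peaks did not overlap. TRAF3, an adaptor that restrains noncanonical NF-kappaB signalling, and NFKB1, an NF-kappaB subunit, had a peak in 1 list each, inside the gene.

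Of 28 other TNF receptor superfamily genes, 5 had a peak. TNFRSF11A, the receptor RANK, had a peak over its start in antisense control replicate 1 and a different one in its body in CRLM1-OE replicate 2. NGFR had a peak over its start in CRLM1-OE replicate 1, with a rank of 488 of 4339, and TNFRSF13C in antisense control replicate 2, with a rank of 366 of 2224.

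Of 16 genes of THO, TREX and messenger RNA export, 4 had a peak. POLDIP3, a TREX-associated protein, had a peak just upstream of its start in 3 lists, ranking 2493 of 4339 and 1343 of 3163 in CRLM1-OE and 306 of 2607 in empty control replicate 2. The closest of these peaks ended 9 bp before the start. NXF1, the export receptor to which TREX hands messenger RNA, had a peak at its 3′ end in both CRLM1-OE lists, with ranks of 3782 and 277, and the peaks did not overlap. THOC5, a THO subunit, and DDX39A, a TREX helicase, had a peak in empty control replicate 1 alone. Of 16 partners of HCF-1, 5 had a peak, each in 1 list, among them KMT2A over its start in CRLM1-OE replicate 1 with a rank of 261. OGT, which processes HCF-1, had a peak upstream of its start in antisense control replicate 1. No gene of the 4 lists had a peak in as many lists as HCFC1R1 and THOC6. Those genes were chosen by their peaks, and 0.294% of all protein-coding genes had a peak in 5 or 6 lists, so nothing is read from this.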

How the data were processed

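hnRNPK ChIP-seq was done in HCT116 cells, and 6 IP libraries, each with its input, gave 6 peak lists. By the study's methods, reads were trimmed with cutadapt and aligned with Bowtie2 to GRCh38, and the authors used MACS2 to call peaks per library and against the input of the same group and number. The deposited lists hold the chromosome, start, end, name and score of each peak. The score is the authors' value, and none is under 50. Such a floor reads as the p-value cutoff of older MACS versions whereas the methods name a q-value threshold, so the scale is not settled. Scores order peaks within a list, and scores of different lists are set side by side as a description only. Unused numeric columns numbered 0. Without read counts, depth and the precision of a score are unknown.

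Peaks on chromosomes 1 to 22, X and Y were ranked within each list by score, and a peak with the highest score has rank 1. A gene had a peak when a peak overlapped, by at least 1 bp, its body or the 5 kb before its start in GENCODE release 44, which can differ from the annotation of the authors. Head-to-head pairs had starts on opposite strands within 1 kb. Coordinates count from 1. The 3 genes, the 4 gene lists and the comparisons were chosen with earlier results of these data known. Genes named beyond these were protein-coding genes within 50 kb, listed genes with a peak in 2 or more lists, and up to 5 genes most like THOC6 in rank. Other listed genes and the regions that cover a start were named after their values were seen. No test was run, since the peaks chose the genes, and groups are given as means ± SD over lists. The code, in Python 3.11.15 with numpy 2.4.6, pandas 2.3.3, pysam 0.24.0, samtools 1.23.1 and matplotlib 3.10.9, was tested on simulated lists. Alternatives were other gene windows, filters on score, rankings and starts, and leaving out each list in turn.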

Additional observations from a re-analysis of the deposited data

How the results depend on the processing

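The 9 results were recomputed under 68 alternatives. Of these values, 61 moved by at most 1.5 times (counts and lengths) or by less than the combined SD (rank and width), and none changed sign. This number is no measure of stability. Leaving out 1 list can lower a count of lists by at most 1, which here could not exceed 1.5 times. For rank by score the combined SD was 30.0 points, wide enough to pass a difference near 0. With the peak midpoint required inside the gene or its upstream 5 kb, the lists with a peak at TNFRSF12A fell from 3 to 1, because the wide peaks are centred on HCFC1R1 or between the genes. Ranked by score divided by width, CRLM1-OE minus empty control gave a difference in rank of -56.7 points with a combined SD of 14.1. Ranked by width it was -0.533 points with an SD of 0.494, and by score -21.4 points with an SD of 30.0. It exceeded its SD by score divided by width and by width, but not by score, and the cause was not tested. Comparisons with a combined SD are descriptions of peaks that chose the genes, not tests. As a multiple of the median width of the list, the difference in width was 2.17 with a combined SD of 1.74, which it exceeded, whereas the difference in bp did not exceed its own. With the 1000 highest-scoring peaks of each list, HCFC1R1 and THOC6 had a peak in 4 lists, regions in 5 or more lists numbered 20 in place of 31, and head-to-head pairs under 1 peak in any list 34 in place of 56. With all sequences in the lists, regions in 5 or more lists numbered 49. Canonical starts, chosen after seeing the data, gave 42 such pairs.

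Leaving out 1 list at a time gave 2 to 3 lists for TNFRSF12A, 4 to 5 for HCFC1R1 and 4 to 5 for THOC6, and 3 to 4 lists with the starts of HCFC1R1 and THOC6 under 1 peak. The difference in rank then ranged from -42.6 points without empty control replicate 1 to -0.201 points without empty control replicate 2, and that in width from 26.5 bp without CRLM1-OE replicate 2 to 2966.5 bp without CRLM1-OE replicate 1. The interval common to the peaks ranged from 884 bp to 1395 bp, the latter without antisense control replicate 1. No paired analysis was possible because no result comes from a test. Unknown read depth limits every statement on a missing peak and on scores between lists.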
